A study of Mus musculus and synthetic construct with 33 samples.

Results

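The lungs of mouse embryos at E14.5, in mid-gestation, were compared between wild type and a mutant of linc-p21, a long noncoding RNA gene whose official symbol is Trp53cor1. The samples of this comparison were chosen by their tissue and genotype labels and number 6 of the 33 in the series, 3 wild-type and 3 mutant. Mutant embryos carried the allele Trp53cor1tm1.1Vlcg on a 129S6/C57BL/6 background (N3, no Neo), and wild-type embryos had the same background. Each genotype held 2 males of litter 27 and 1 female of litter 28, so sex and litter were balanced. No treatment was recorded, and the labels do not give how the lung was cut free from the heart and the great vessels. PolyA RNA was sequenced, and the authors deposited 1 pooled expression value per gene and genotype, in FPKM, a fragment count scaled by transcript length and by sequencing depth. The 3 libraries behind each value, their spread and their depth are therefore unknown here, and every difference below sets 1 pooled value against another.

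linc-p21 is transcribed next to Cdkn1a, which encodes the cyclin-dependent kinase inhibitor p21, a well-known target of the transcription factor p53. At this stage the lung consists of branching epithelial tubes in a mesenchyme that also forms airway smooth muscle and vessels. In mice, heart muscle of an atrial kind grows along the pulmonary veins into the lung, so transcripts of cardiac muscle can belong to this organ as well as to neighbouring heart tissue. Atrial muscle uses its own myosin light chains and secretes natriuretic peptides, while ventricular muscle uses other light chains.

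The table holds 26754 genes, of which 13421 reached an FPKM of at least 1 in wild type or mutant. The authors' test covered 14709 genes. A gene is said to have fallen or risen below only where the q-value of the authors' deposited table was under 0.05. By that rule 91 genes, 0.619% of those tested, fell in the mutant lung and 13, or 0.0884%, rose. Counts of called lung genes on a list are to be read beside these shares. The p-values are coarse at the low end: in the authors' deposited table, 87 of the 104 called genes share the smallest p, 5e-05, and with it q = 0.00845. An unadjusted p under 0.05 was reached by 689 of the 14709 genes. Log2 differences below are log2((mutant FPKM + 0.1) / (wild-type FPKM + 0.1)), a scale on which the change of a weakly expressed gene is understated. The median over the 13418 genes with an FPKM of at least 1 that were tested was -0.000771.

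The lung identity of the samples was checked on its defining markers. Sftpc, which encodes surfactant protein C, stood at 630 FPKM in wild type and 636 in the mutant, against at most 0.0938 in the wild-type heart, hindlimb and liver of the same series. Nkx2-1, the transcription factor that specifies lung epithelium, stood at 58.6 and 63.3. Both genotypes thus carried lung epithelial transcripts at like levels.

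**Figure D1:**
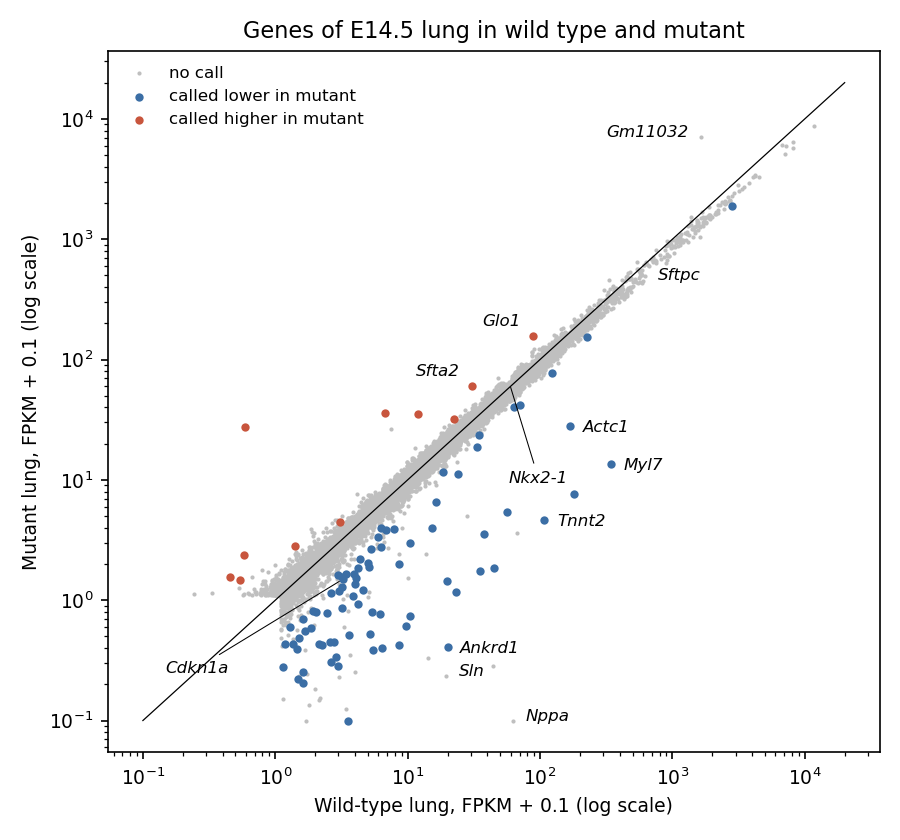
Each point is a gene with an FPKM of at least 1 that the authors tested, placed by its wild-type (x) and mutant (y) lung FPKM plus 0.1 on log axes. Genes called lower are blue, genes called higher are red, and the line marks equal values. Myl7, at 342 against 13.6, and other heart muscle genes lie far below the line, while Sftpc and Nkx2-1 lie on it.

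Cdkn1a, the neighbour of the targeted gene, fell in the mutant lung. It lies on chromosome 17 at 29090979 to 29100722 (mm10, plus strand), and its start is 0.0120 Mb from that of Trp53cor1, which occupies 29057474 to 29078961 on the minus strand. Cdkn1a measured 3.14 FPKM in wild type and 1.40 in the mutant, and the log2 difference was -1.12. In the authors' deposited table it has q = 0.00845. The targeted gene itself was close to the floor of the assay in this organ: Trp53cor1 measured 0.104 FPKM in wild type and 0.00505 in the mutant and was not tested by the authors. The lacZ reporter sequence that the table lists for the mutant allele measured 0 in wild type and 0.0203 in the mutant. The direction of both is that of their genotype labels, at levels too low to say more.

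The first RefSeq start of Cdkn1a coincides with the start of the gene in the table, and a p53 response element is found just before it. The 250 bases before that start (RefSeq, GRCm38.p6, the assembly also called mm10; chr17:29090729-29090978, plus strand) are shown because Cdkn1a is the p53 target that changed. Capitals mark 20 bases that match the p53 response element, with the core C and G of each repeat exact and at most 1 mismatch elsewhere.
Cdkn1a: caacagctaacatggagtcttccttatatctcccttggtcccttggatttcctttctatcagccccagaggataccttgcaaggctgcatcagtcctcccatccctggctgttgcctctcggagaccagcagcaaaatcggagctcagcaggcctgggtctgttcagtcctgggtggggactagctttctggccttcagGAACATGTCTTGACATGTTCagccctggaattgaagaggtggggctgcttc
The match runs from base -51 to base -32 before this start and begins 2841 bases before the second RefSeq start of the gene. A match of this quality was found in 0.0578% of 32851 promoter windows of the same length. It is a description of the letters, and binding was not measured here.

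Among 26 tested p53 targets on the list, Cdkn1a was the 1 gene called, and 4 reached an unadjusted p under 0.05, beside 4.68% of all tested genes. The median log2 difference of the 24 members with an FPKM of at least 1 was -0.10. Mdm2, the p53 antagonist, measured 26.4 and 27.1 FPKM in wild type and mutant. Ccng1, another p53 target, measured 22.9 and 16.8 without a call, at q = 0.177 in the authors' deposited table. Trp53 itself measured 84.9 and 85.4. Rps27l, a ribosomal protein-like target of p53, measured 301 and 233, also without a call (q = 0.555 in the authors' deposited table). In all, 17 of the 24 members were lower in the mutant. Whether Cdkn1a differs from the rest of the list was not tested.

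The other brakes of the cell cycle were not called. Of 9 tested cyclin-dependent kinase inhibitors and RB family members, Cdkn1a was the 1 called. Cdkn1c, an inhibitor encoded by an imprinted gene, had the highest level of the list, with 240 FPKM in wild type and 189 in the mutant. Cdkn1b measured 22.3 and 21.1, and Rb1, the retinoblastoma protein gene, 16.2 and 15.8. Of 30 cell cycle and DNA replication genes, 0 were called and 0 reached an unadjusted p under 0.05 in the authors' test, and their median log2 difference was 0.00250. The proliferation marker Mki67 measured 86.9 FPKM in wild type and 109 in the mutant, and the replication clamp gene Pcna measured 246 and 213.

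Genes on fixed cardiac lists made up 38 of the 91 genes that fell. The lists are not complete, and 69 of the 91 had their highest wild-type level in heart, as given below. Across 6 lists of cardiac genes (atrial, ventricular, shared sarcomere, calcium handling and excitation, energy supply, transcription factors), 38 of 91 tested members fell and 0 rose, beside the 0.619% of all tested genes that fell. The 76 members with an FPKM of at least 1 had a median log2 difference of -2.08, and 68 of them were lower in the mutant. Of these 76, 34 passed the FPKM minimum through their wild-type value alone and so had to be lower, which limits what the median shows. The summed FPKM of the 76 was 2180 in wild type and 797 in the mutant. In bulk tissue, fewer heart muscle cells and less RNA per such cell cannot be told apart. Whether all 3 wild-type lungs shared the high level was not tested, because only pooled values were used here.

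**Figure D2:**
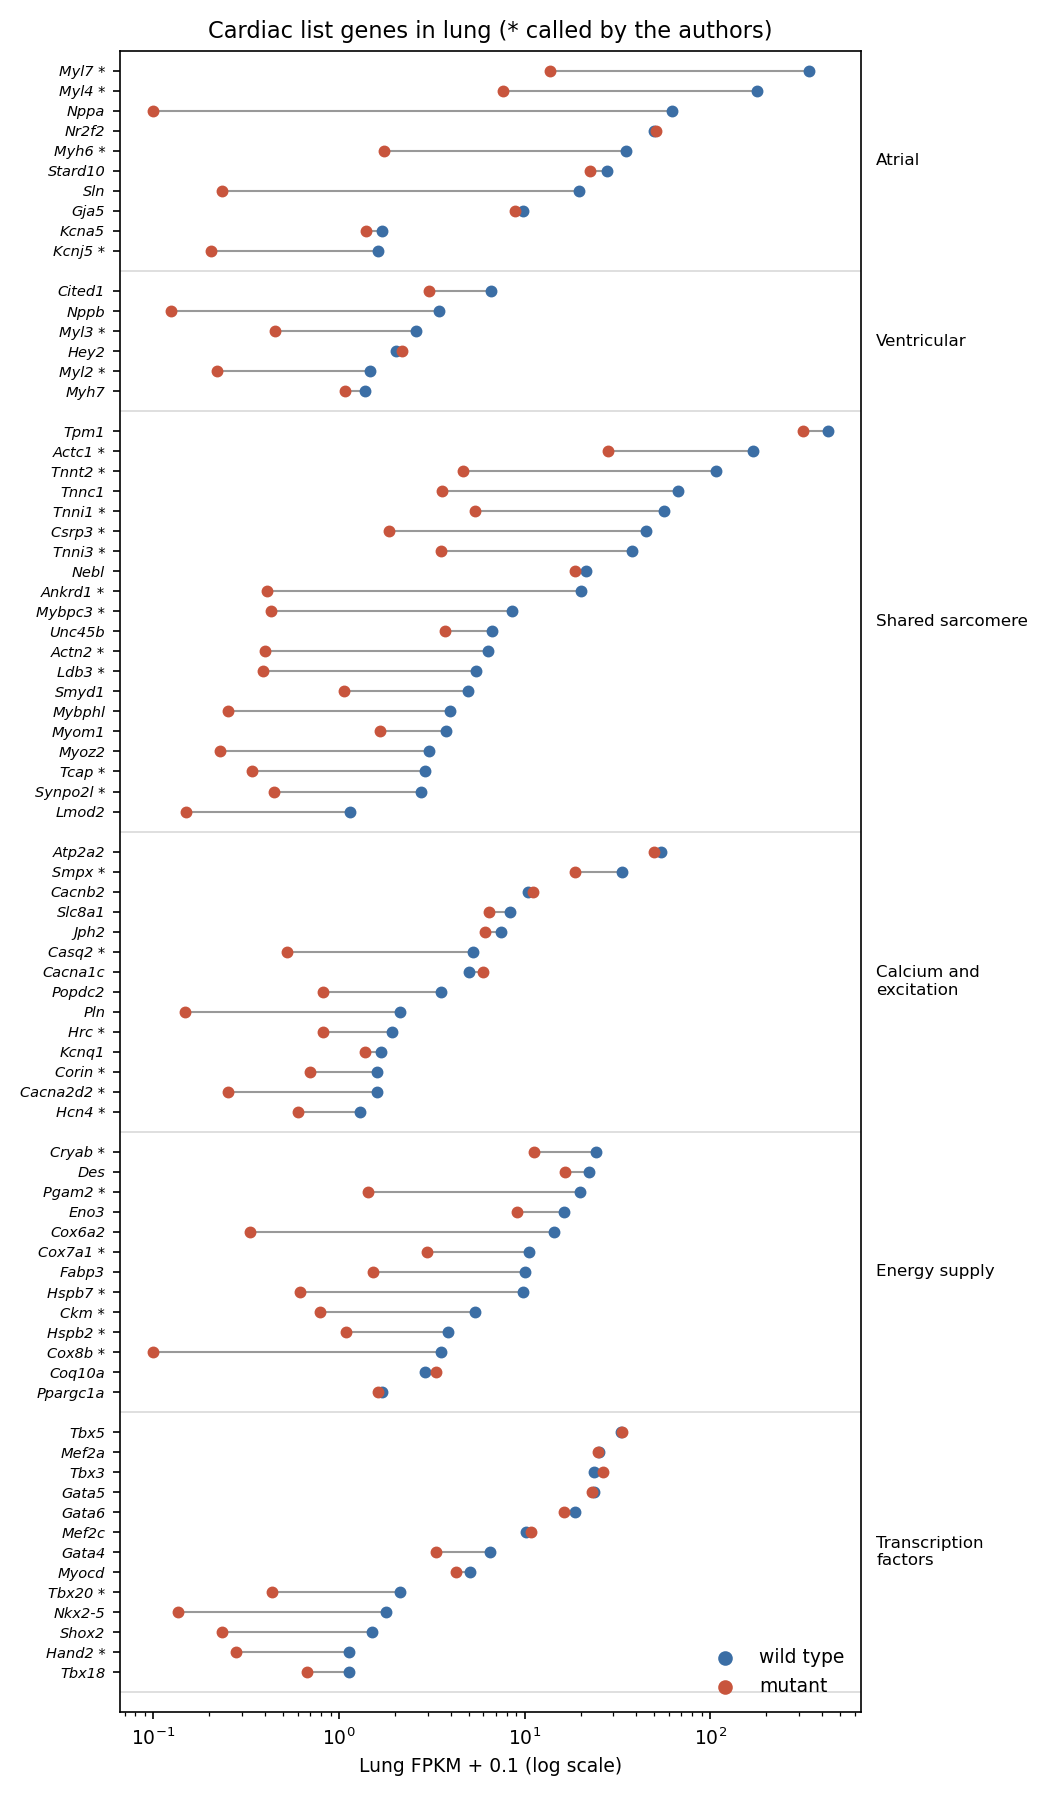
Lung FPKM plus 0.1 (x, log scale) of every tested cardiac list gene with an FPKM of at least 1, wild type in blue and mutant in red, grouped by role. Asterisks mark genes called by the authors. Myl7, Myl4 and Tnnt2 moved by more than a factor of 10, while Nr2f2, Tbx5 and Atp2a2 have overlapping or neighbouring points.

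Atrial genes held the highest cardiac levels in wild-type lung next to shared sarcomere genes. Myl7, the atrial myosin regulatory light chain (chromosome 11, 5896637 to 5898782, minus strand), measured 342 FPKM in wild type and 13.6 in the mutant, 25.2-fold lower. Myl4, the atrial essential light chain, measured 179 and 7.55. Myh6, the alpha myosin heavy chain, measured 34.9 and 1.65. All 3 fell, with log2 differences of -4.65, -4.55 and -4.32 and q = 0.00845 in the authors' deposited table. Kcnj5, a subunit of the acetylcholine-activated potassium channel of the atrium, fell from 1.52 to 0.103. Bmp10, a ligand of the BMP family made by atrial muscle, was listed at 0.981 in wild type and at 0 in the mutant and was called lower.

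Nppa and Sln had larger differences than any called gene and yet no call. Nppa, the atrial natriuretic peptide gene, was listed at 62.0 FPKM in wild type and at 0 in the mutant, with p = 0.122 in the authors' deposited table. Sln, which encodes the calcium pump inhibitor sarcolipin, measured 19.5 and 0.134, with p = 0.147 in the authors' deposited table. Gm13054, an antisense gene whose exons overlap those of Nppa on chromosome 4, measured 44.0 and 0.183 with q = 0.0837 in the authors' deposited table. The sources used here do not say whether counting used strand, so reads of Nppa and Gm13054 cannot be told apart. The spread between libraries that went into these p-values is not visible in the pooled table.

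Of the 11 atrial genes tested, 5 fell and 0 rose. The 10 with an FPKM of at least 1 had a median log2 difference of -3.66, and 3 of the 10 passed that minimum through wild type alone. Other members showed smaller differences without a call. Nr2f2, a transcription factor of veins and mesenchyme, measured 49.85 and 51.1 FPKM, and Gja5, the connexin 40 gene of arteries and atria, measured 9.70 and 8.76. Stard10 measured 27.8 and 22.5, and Kcna5 measured 1.61 and 1.30. Why these members differed less was not tested.

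Genes of the sarcomere shared by all heart muscle gave the most calls of the 6 lists, which differ in size. By share of tested members called, they had 52% and the energy supply list 53.3%. Of 25 tested, 13 fell and 0 rose, and 18 reached an unadjusted p under 0.05. All 20 members with an FPKM of at least 1 were lower in the mutant, 10 of them having passed through wild type alone, and their median log2 difference was -3.40. Tnnt2, cardiac troponin T, measured 108 FPKM in wild type and 4.58 in the mutant. Actc1, the cardiac actin, measured 169 and 27.97. Csrp3, a Z-disc protein that senses stretch, measured 45.1 and 1.75. Each of the 3 fell, and Csrp3 had the lowest mutant level of them.

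Ankrd1, a cardiac stress-response gene, had the lowest log2 difference of all called genes, at -5.62, from 19.9 FPKM to 0.307. Tnni3 and Tnni1, the adult and fetal inhibitory troponins of the heart, fell from 37.5 to 3.44 and from 56.5 to 5.33. Mybpc3, which encodes the cardiac myosin-binding protein C, fell from 8.43 to 0.327. Thick and thin filament genes therefore moved alike in direction. Tnnc1, the slow and cardiac troponin C gene, measured 67.0 and 3.51 and was not called, with p = 0.0399 and q = 0.978 in the authors' deposited table. Tpm1, a tropomyosin that smooth muscle and other cells also make, measured 429 and 316 and was not called.

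Ventricular genes were low in lung in both genotypes. Myl2, the ventricular regulatory light chain, measured 1.38 FPKM in wild type and 0.120 in the mutant, and Myl3, the ventricular essential light chain, measured 2.50 and 0.353. Both fell, with q = 0.00845 and q = 0.0495 in the authors' deposited table. Myh7, the beta myosin heavy chain, measured 1.28 and 0.978 and was not called. In all, 2 of 6 tested ventricular genes fell and 0 rose, beside the 0.619% of all tested genes that fell. The median log2 difference of the 6 was -1.81, 4 of them having passed the FPKM minimum through wild type alone.

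The balance of chamber isoforms within a table differed between lung and heart. In wild-type lung Myl7 had 249 times the FPKM of Myl2, while in wild-type heart Myl2 had 5.86 times the FPKM of Myl7. Myl4 had 71.6 times the FPKM of Myl3 in wild-type lung, against 0.901 times in wild-type heart. Myh6 had 27.3 times the FPKM of Myh7 in wild-type lung and 0.265 times in wild-type heart. All 3 pairs thus leaned to the atrial form in lung. In the mutant lung the excess of Myl7 over Myl2 was 113 times and that of Myh6 over Myh7 was 1.69 times, values that rest on ventricular levels of 0.120 and 0.978 FPKM. These ratios are levels per transcript length, each formed within 1 table.

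**Figure D3:**
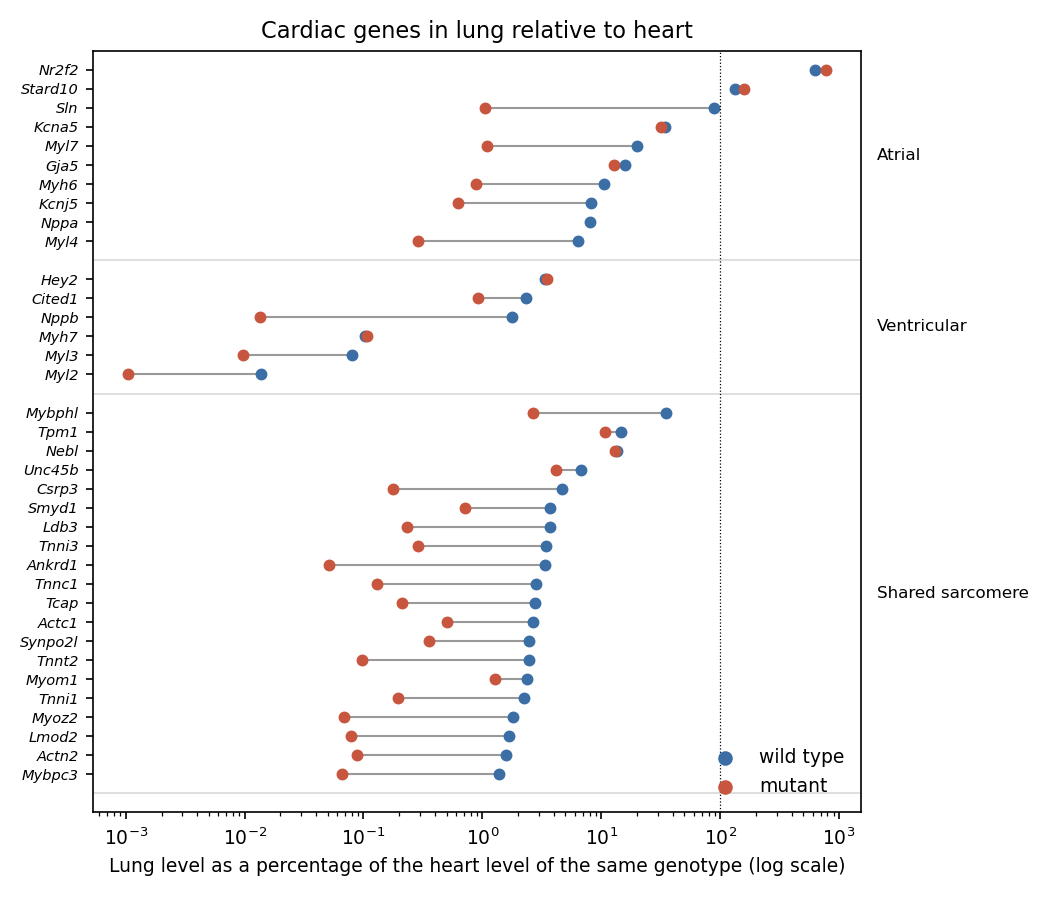
For each tested gene of 3 cardiac lists with an FPKM of at least 1 in lung, the lung level as a percentage of the heart level of the same genotype (x, log scale), wild type in blue and mutant in red; Nppa, listed at 0 in the mutant lung, has no red point. Myl7 stood at 19.9% of the heart level in wild type and 1.09% in the mutant, Tnnt2 at 2.47% and 0.0968%, and Myl2 at 0.0136% and 0.00105%.

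Set against the heart table, the wild-type lung held different percentages of different cardiac genes. The tables were normalised separately and no embryo gave both a lung and a heart library, so these percentages are a description. Sln in wild-type lung stood at 89.7% of its wild-type heart level, Myl7 at 19.9%, Myh6 at 10.5%, Nppa at 8.05% and Myl4 at 6.40%. Bmp10, also an atrial gene, stood at 2.22%. Of the shared sarcomere genes, Mybphl, a myosin-binding protein gene known for atrial muscle, stood at 35.3%, Tpm1 at 14.8%, Nebl at 13.6%, Unc45b at 6.72%, Csrp3 at 4.72%, Tnni3 at 3.43%, Actc1 at 2.68%, Tnnt2 at 2.47% and Mybpc3 at 1.39%. The ventricular genes Cited1 and Nppb stood at 2.33% and 1.77%, and the ventricular contractile genes at the lowest percentages printed here, with Myh7 at 0.102%, Myl3 at 0.0805% and Myl2 at 0.0136%. The lists thus overlapped in these percentages.

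In heart itself, 0 of 12 tested atrial genes were called. Yet 11 of the 12 were lower in the mutant, with a median log2 difference of -0.19, and 4 had an unadjusted p under 0.05. Of all tested heart genes with an FPKM of at least 1, 6816 of 13139 were lower. An unadjusted p under 0.05 in the authors' test was reached by 452 of 15336 genes tested in heart. Myl7 measured 1724 FPKM in wild-type heart and 1246 in mutant heart, with p = 0.0229 in the authors' deposited table. Myh6 measured 332 and 186 there, with p = 0.00255 and q = 0.455 in the authors' deposited table. Sln measured 21.7 and 12.7, and Mybphl 10.97 and 5.79, the latter with q = 0.0639 in the authors' deposited table. Tnnt2 measured 4356 and 4729 and Nppa 770 and 702, neither called. Across the 6 cardiac lists, 1 of 98 genes tested in heart was called, against 0.228% of all genes tested there. That gene, Fgf12, which encodes a sodium channel-binding factor, measured 1.40 and 0.331 in heart and fell in lung as well, from 0.961 to 0.293. Whether the cardiac difference of lung exceeds that of heart was not tested, since each organ has 1 pooled value per genotype. In hindlimb, where 0.623% of genes were called, 8 of 83 tested members of the cardiac lists fell, among them Tnnt2 from 92.3 to 63.8 and Myl4 from 214 to 151. The skeletal muscle list was lower in hindlimb too, with 4 of 23 tested members called lower and a median log2 difference of -0.37. In liver, where 0.406% were called, Myh6 was the 1 list member called, and it rose from 0.104 to 0.779.

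Promoter sequences of 4 cardiac genes with large differences in lung are shown to set letters beside values. Each line gives the 250 bases before the first RefSeq start (GRCm38.p6), in the direction of the gene. Capitals mark AGATAA and TGATAA, which GATA factors can bind, TCACACC, a T-box site, and the CArG box, which serum response factor can bind, on either strand. The windows of Csrp3, Myl4 and Myh6, which also fell in lung, were searched too. They hold none of these sites and are not shown. The windows are chr11:5898783-5899032 on the minus strand for Myl7, chr4:148000472-148000721 on the plus strand for Nppa, chr19:36119845-36120094 on the minus strand for Ankrd1 and chr1:135836084-135836333 on the plus strand for Tnnt2.
Myl7: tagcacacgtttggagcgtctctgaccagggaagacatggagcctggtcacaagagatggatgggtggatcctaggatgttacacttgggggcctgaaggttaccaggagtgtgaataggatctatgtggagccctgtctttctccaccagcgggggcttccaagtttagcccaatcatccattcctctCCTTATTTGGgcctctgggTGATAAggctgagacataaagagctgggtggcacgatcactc
Nppa: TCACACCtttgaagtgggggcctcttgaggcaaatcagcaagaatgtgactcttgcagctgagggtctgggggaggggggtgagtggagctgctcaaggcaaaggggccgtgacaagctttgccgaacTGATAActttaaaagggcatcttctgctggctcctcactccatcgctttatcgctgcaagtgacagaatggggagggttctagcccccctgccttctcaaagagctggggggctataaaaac
Ankrd1: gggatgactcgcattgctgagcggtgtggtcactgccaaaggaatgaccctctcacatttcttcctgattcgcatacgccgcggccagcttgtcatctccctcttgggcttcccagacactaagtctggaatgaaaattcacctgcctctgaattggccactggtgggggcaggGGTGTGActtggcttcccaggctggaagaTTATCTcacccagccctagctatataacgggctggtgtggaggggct
Tnnt2: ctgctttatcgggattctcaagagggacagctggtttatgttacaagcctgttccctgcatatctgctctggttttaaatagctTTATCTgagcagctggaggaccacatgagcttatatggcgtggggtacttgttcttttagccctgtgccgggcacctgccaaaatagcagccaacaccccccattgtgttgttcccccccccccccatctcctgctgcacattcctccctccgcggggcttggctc
The CArG box of Myl7 runs from base -61 to -52 and its TGATAA from -42 to -37. In Ankrd1 the AGATAA lies on the other strand, from -47 to -42. Of all 32851 windows, 9.99% hold AGATAA, 7.94% TGATAA, 3.33% TCACACC and 1.47% a CArG box. A site for MEF2, another muscle factor, was searched as well and is in 2.92% of windows and in none of the 4 shown. A match describes letters in a window and no binding was measured in these lungs.

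Genes of calcium handling and excitation fell as well. Of 19 tested, 8 fell and 0 rose, and the 14 with an FPKM of at least 1 had a median log2 difference of -0.98, with 7 of the 14 past that minimum through wild type alone. Casq2, the calcium store protein of cardiac muscle, fell from 5.14 FPKM to 0.424. Hcn4, the channel of the pacemaker current, fell from 1.20 to 0.503. Smpx, a small muscle protein, fell from 33.4 to 18.6. Among members not called, the calcium pump gene Atp2a2 had the highest level, at 54.3 and 49.6.

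Genes of the muscle's energy supply and its small heat shock proteins behaved likewise, with 8 of 15 tested called lower and 0 higher. Cox8b, a muscle form of a cytochrome c oxidase subunit, was listed at 3.44 FPKM in wild type and at 0 in the mutant. Pgam2, the muscle phosphoglycerate mutase, fell from 19.8 to 1.33, and Ckm, the muscle creatine kinase, from 5.30 to 0.691. Hspb7, a small heat shock protein of heart, fell from 9.69 to 0.516, and Cryab, a related chaperone that many tissues make, fell from 24.1 to 11.1. Cox6a2, a further muscle oxidase subunit, measured 14.3 and 0.230 and was not called, with q = 0.185 in the authors' deposited table.

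Among cardiac transcription factors, Tbx20 fell from 2.03 FPKM to 0.335 and Hand2 from 1.04 to 0.177. These were 2 of 15 tested members to be called, beside the 0.619% of all tested genes that fell. Nkx2-5, the early marker of cardiac muscle, measured 1.68 and 0.0351 and was not called, with p = 0.0247 and q = 0.869 in the authors' deposited table. Shox2, a factor of the sinus venosus and pulmonary vein muscle, measured 1.40 and 0.135. Tbx5, which lung mesenchyme also uses, measured 33.1 and 33.3, and Gata6, also a factor of lung epithelium, 18.6 and 16.2. The list's median log2 difference was -0.24 over 13 members, 5 of which passed the minimum through wild type alone.

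A set of heart genes was also formed without use of lung values, though this set was not planned before the data were seen. In wild-type tissue, 135 genes had at least 10 FPKM in heart and at least 10 times the level of hindlimb and of liver. In lung, 120 of the 135 were tested and 41 fell while 0 rose, beside the 0.619% of all tested genes that fell. Among the 96 that also had an FPKM of at least 1, 35 fell, beside 0.596% of all genes with that level, and 34 of the 96 had passed through wild type alone. Their median log2 difference was -1.08, 91 of 96 were lower, and their summed FPKM was 2150 in wild type and 806 in the mutant. The corresponding 191 hindlimb genes gave 3 falls among 122 tested, or 2.46%, with a median of -0.05 over 104. The 346 liver genes gave 3 falls among 170 tested, or 1.76%, with a median of -0.10 over 121. Both shares were above the 0.619% of all tested genes. Of the 91 genes that fell in lung, 69 had their highest wild-type level in heart among the 4 organs, against 19.6% of the genes tested with an FPKM of at least 1.

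Of 12 tested skeletal muscle genes, 3 fell and 0 rose, beside the 0.619% of all tested genes that fell. Myl1, a fast skeletal essential light chain, fell from 23.2 FPKM to 1.06, and it measured 112 in wild-type heart and 318 in wild-type hindlimb. Casq1 fell from 4.90 to 1.92 and measured 101 in wild-type heart and 6.71 in wild-type hindlimb. Myh3, the embryonic myosin heavy chain, fell from 0.561 to 0.180. It measured 0.404 in wild-type heart and 163 in wild-type hindlimb. Mylpf, the fast skeletal regulatory light chain, measured 4.79 and 4.30 in lung and was not called.

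Of 13 tested smooth muscle genes, 0 were called and 2 reached an unadjusted p under 0.05 in the authors' test, with a median log2 difference of -0.02. Acta2, smooth muscle actin, measured 371 FPKM in wild type and 375 in the mutant, and Myh11, the smooth muscle myosin heavy chain, 31.6 and 38.6. Tagln measured 83.5 and 78.2. The lowest difference was that of Des, the desmin gene, which heart shares, at 22.1 and 16.4, with q = 0.411 in the authors' deposited table. Cnn1, a calponin gene, measured 16.6 and 13.1, with q = 0.871 in the authors' deposited table. Myl9, a regulatory light chain of smooth muscle that is not on that list, fell from 226 to 153, and its wild-type heart level was 1088. Whether the fall of Myl9 differs from the values of the listed smooth muscle genes was not tested.

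**Figure D4:**
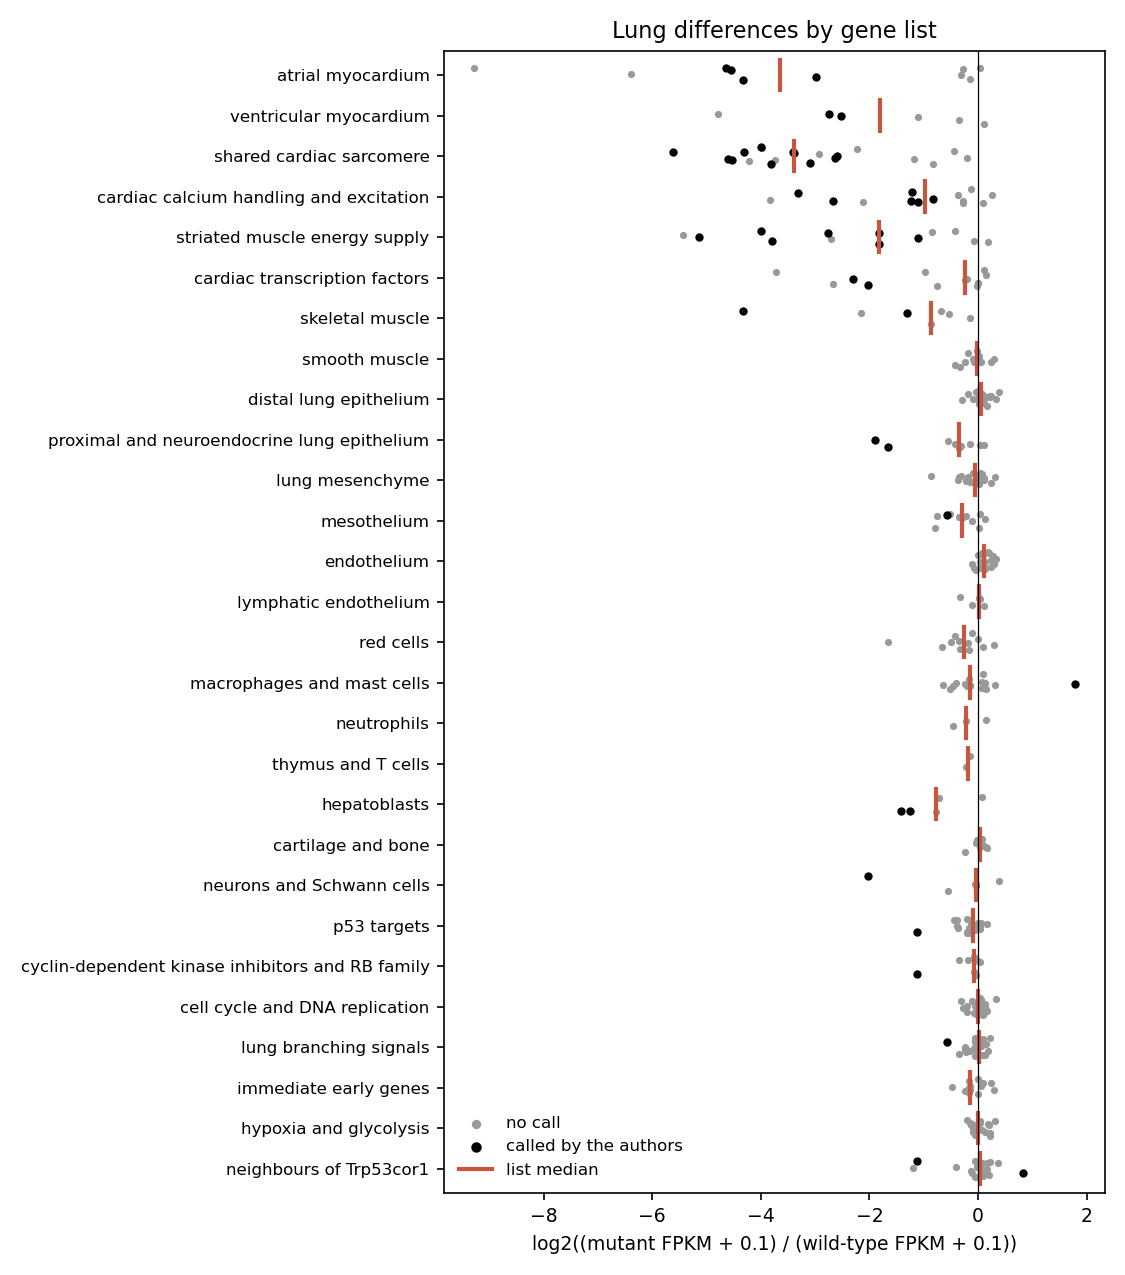
Log2 differences (x) of tested genes with an FPKM of at least 1 in 28 lists (y). Black points were called by the authors, grey points were not, and red bars are list medians. The 6 cardiac lists and the skeletal muscle list reach far to the left. The atrial and shared sarcomere medians are -3.66 and -3.40, with 3 of 10 and 10 of 20 members past the FPKM minimum through wild type alone. The skeletal muscle median is -0.86, while the distal epithelium median is 0.05.

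The distal lung epithelium forms the growing tips and later the alveoli. Of 20 tested genes on its list, 0 were called and 0 reached an unadjusted p under 0.05 in the authors' test, and their median log2 difference was 0.05, with 14 higher and 6 lower. Sox9, a factor of the growing tips, measured 8.51 FPKM in wild type and 8.67 in the mutant. Etv5, a target of FGF signalling there, measured 72.9 and 76.8. Sftpb, another surfactant protein gene, measured 19.1 and 19.0. The summed FPKM of the list was 1186 in wild type and 1215 in the mutant.

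Among proximal airway genes, a pair of keratins fell. Krt5, a basal cell keratin, fell from 1.37 FPKM to 0.293, and Krt4, a keratin of stratified epithelium, from 1.27 to 0.333. These were the 2 of 11 tested members called, beside the 0.619% of all tested genes that fell. The median log2 difference was -0.36 over 9 members, of which Krt5 and Krt4 passed the minimum through wild type alone. Scgb3a2, an early secretory gene of the airway, measured 26.8 and 20.9, and the airway factor Sox2 5.21 and 4.69, neither called. Krt17, a further basal keratin outside the list, fell from 1.09 to 0.331. The basal cell factor Trp63 measured 0.519 and 0.306 and was not called. In wild-type hindlimb, which carries skin, Krt5 measured 253 and Krt4 97.5.

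Mesenchyme, vessels and branching signals gave few calls. Of 18 mesenchyme genes, 0 were called, and the median log2 difference was -0.05. An unadjusted p under 0.05 in the authors' test was reached by 4 of them, beside 4.68% of all tested genes. Of these, Dcn measured 86.4 FPKM in wild type and 66.5 in the mutant, Lum 29.4 and 23.6, and Twist1 1.04 and 0.524. The remaining gene, Pdgfrb, was higher in the mutant, at 26.6 and 33.0. Tbx4, a factor of lung mesenchyme, measured 63.5 FPKM in wild type and 63.9 in the mutant, and the collagen gene Col3a1 451 and 484. Of 19 endothelial genes, 0 were called and 2 reached an unadjusted p under 0.05, with a median of 0.10 and 15 of 19 higher. Pecam1 measured 63.0 and 76.2 and Cdh5, the VE-cadherin gene, 64.5 and 76.3. Vascular genes thus gave no call alongside the cardiac ones.

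The 28 branching genes had a median log2 difference of 0.0110 and 1 call. Fgf10, the mesenchymal ligand that draws out the buds, measured 13.7 FPKM and 12.3, and its epithelial receptor gene Fgfr2 74.8 and 78.8. Shh, the epithelial ligand that signals back, measured 10.9 and 12.8, and its target Gli1 30.6 and 31.9. The gene called was Aldh1a2, the retinoic acid synthesising enzyme, which fell from 34.5 to 23.3, with q = 0.0242 in the authors' deposited table.

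Aldh1a2 is also a mesothelial gene, and 8 of 11 genes on the mesothelial list were lower. It was the 1 called of 11 tested, and 4 reached an unadjusted p under 0.05, against the 4.68% of all tested genes. Upk3b, a marker of the lining mesothelium, measured 37.4 FPKM and 26.2 without a call, with q = 0.0581 in the authors' deposited table. Wt1, a mesothelial factor, measured 8.25 and 6.44. The keratins Krt8, Krt18 and Krt19, which epithelium shares, measured 75.3 and 77.4, 62.0 and 67.4, and 38.2 and 38.7. The median log2 difference of the list was -0.30 over 11 members, 2 of which passed the FPKM minimum through wild type alone.

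Blood genes gave 1 call. Of 15 tested red cell genes, 0 were called and 4 reached an unadjusted p under 0.05 in the authors' test, with a median log2 difference of -0.26. The adult beta globin gene Hbb-bs measured 2140 FPKM in wild type and 1677 in the mutant, and the alpha globin gene Hba-a1 1679.8 and 1679.8. These levels lie in a range where nearly all genes were lower. Of 104 genes with a mean above 1000 FPKM, 101 were lower in the mutant, with a median log2 difference of -0.29. Of 708 genes from 100 to 1000 FPKM, 534 were lower, with a median of -0.11, against 0.0200 for genes under 10 FPKM. The called mitochondrial gene mt-Nd3, from 2811 to 1890, lies above 1000 FPKM too. Rps27l, Cdkn1c, Pcna and Myl9 lie in the range from 100 to 1000. How much of the differences of these genes goes with their level was not tested. Of 16 macrophage and mast cell genes, the mast cell tryptase gene Tpsab1 rose from 0.356 to 1.47, and it is 1 of the 6 rises on chromosome 17. Tpsb2, the other mast cell tryptase gene on the list, measured 1.34 and 0.814 without a call, and fell in hindlimb from 25.2 to 14.3. Tpsab1 rose in hindlimb as well, with q = 0.0123 in the authors' deposited table. How reads were divided between these tryptase genes was not tested. The macrophage receptor gene Csf1r measured 10.3 and 10.9, and the mast cell protease genes Cpa3 and Cma1 5.35 and 3.73, and 2.80 and 3.05.

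A pair of genes typical of hepatoblasts, the liver cells of this stage, fell from a low level. Afp, the fetal serum protein gene, fell from 4.00 FPKM to 1.42 and Alb, the albumin gene, from 3.85 to 1.56. They were 2 of 7 tested hepatoblast genes to be called, beside the 0.619% of all tested genes that fell. Wild-type liver held 8915 and 10195 FPKM of Afp and Alb. Trf, the transferrin gene, which other tissues also express, measured 9.17 and 9.70. Both Afp and Alb also fell in heart, from 10.3 to 1.71 and from 5.98 to 1.63. The embryos of the heart libraries were others than those of the lung libraries.

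Chromosome 17, which carries Trp53cor1, held 14 of the 104 called genes, or 1.92% of its 730 tested genes against 0.707% of all tested genes, with 8 lower and 6 higher. They lay from 22.1 Mb on the centromere side of Trp53cor1 (Tagap1) to 19.4 Mb on the other side (Apobec2). Within 1 Mb, 30 genes were tested and Cdkn1a was the 1 called. Its closest neighbours on the list showed small differences: Srsf3, a splicing factor gene, measured 421 FPKM in wild type and 383 in the mutant, and Stk38 51.9 and 59.8. Cpne5 measured 3.23 and 1.35 and was not called, with q = 0.149 in the authors' deposited table.

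**Figure D5:**
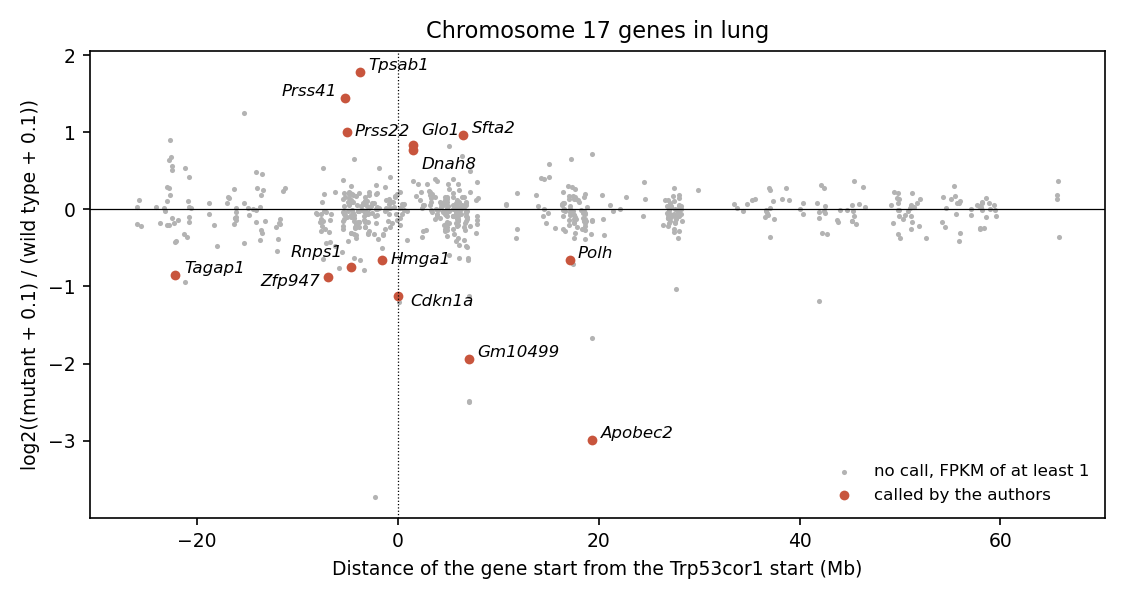
Log2 differences in lung (y) of tested chromosome 17 genes with an FPKM of at least 1, by the distance of their start from that of Trp53cor1 in Mb (x), with called genes of any level in red. Called genes in both directions lie within 22.1 Mb on the left and 19.4 Mb on the right, and Cdkn1a lies at the dotted line with -1.12.

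Several chromosome 17 genes moved alike in the other organs, where other embryos were mostly used, 4 of the 6 lung embryos having also given liver. Glo1, the glyoxalase gene that clears methylglyoxal, rose in lung from 88.2 FPKM to 157, in heart from 79.9 to 189, in hindlimb from 67.0 to 149 and in liver from 180 to 344. Rnps1, a splicing factor gene that has a pseudogene copy, fell in lung from 70.1 to 41.7, in heart from 45.2 to 27.2, in hindlimb from 42.0 to 26.5 and in liver from 43.2 to 19.8. Both were called in all 4 organs. Dnah8, an axonemal dynein gene next to Glo1, rose in lung from 0.379 to 0.716. Cdkn1a fell in all 4 as well, from 20.5 to 6.84 in heart, 35.7 to 7.92 in hindlimb and 3.92 to 1.39 in liver, so that wild-type lung had the lowest wild-type level of the 4.

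Of the other chromosome 17 calls, Sfta2, a surfactant-associated gene expressed in lung epithelium, rose from 30.7 FPKM to 60.0 (q = 0.00845 in the authors' deposited table), and its wild-type level in the other 3 organs was at most 0.162. Sfta2 lies 6.52 Mb from Trp53cor1. Gm10499, a pseudogene of the same region at 7.07 Mb, fell from 15.1 to 3.85. Its exons overlap those of 2410017I17Rik on the other strand, which measured 13.6 and 2.32 without a call, and nearby Gm8909 measured 27.99 and 4.94 without a call. The 3 together had 56.7 FPKM in wild-type lung, 11.1 in mutant lung and at most 0.735 in either genotype of the other organs. Prss22 and Prss41, serine protease genes, rose from 1.31 to 2.74 and from 0.441 to 1.37, and Prss41 also rose in hindlimb, from 0.264 to 1.52. Hmga1, a chromatin protein gene, fell from 122 to 77.5, though how its reads were divided with related sequences is uncertain, and it also fell in liver, from 120 to 64.0. Polh, a DNA polymerase that bypasses ultraviolet damage, fell from 18.2 to 11.5, and in liver from 24.9 to 15.7. Tagap1 fell in lung from 6.76 to 3.71 and Zfp947 from 2.87 to 1.51. Apobec2, a muscle gene, fell from 6.05 to 0.672 and measured 159 in wild-type heart.

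Among genes that rose, several have near-identical copies, so that the division of reads between copies is uncertain. Gm9825 on chromosome 6, which RefSeq names as a pseudogene of Rnps1, rose from 6.64 FPKM to 36.2, while Rnps1 fell as given above; their sum was 76.7 in wild type and 77.8 in the mutant. Rps2-ps10, a copy of the ribosomal protein gene Rps2, rose from 11.9 to 35.1. Rps2 itself, on chromosome 17, measured 1628 and 1052 and was not called, with q = 0.149 in the authors' deposited table. The sum of Rps2 and Rps2-ps10 was 1639.5 in wild type and 1088 in the mutant, unlike the near-equal sums of Rnps1 and Gm9825. Rps2 lies in the range above 1000 FPKM, where 101 of 104 genes were lower in the mutant. How much of its difference goes with that range was not tested. The mutant sum of Rps2 and Rps2-ps10 was 1.03 times the wild-type sum in heart, 0.951 times in hindlimb and 0.775 times in liver. Srp54a was listed at 0 in wild type and at 0.581 in the mutant, while its copies Srp54b and Srp54c measured 14.1 and 12.7, and 10.7 and 9.003. Gm9825 and Rps2-ps10 rose in all 4 organs.

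Other rises were Prkdc, the DNA-dependent protein kinase, from 3.00 FPKM to 4.35, Obfc1, a telomere-end protein gene, from 22.2 to 32.2, and Gm21857 from 0.480 to 2.26. Among remaining falls, Gm4737 on chromosome 16 went from 10.4 to 0.641 and measured 12.5 and 4.20 in wild-type and mutant liver, where it was also called.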

How the data were processed

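RNA from 6 embryonic day 14.5 lungs was sequenced as polyA libraries made with a TruSeq kit, per the labels' protocols. Per the submitters' processing notes, CASAVA 1.8.2, TopHat2 and the mm10 build were used; the program behind the expression values and its settings are not given in the sources used here. The authors deposited 1 FPKM value per gene and genotype with a p-value, a q-value and a test statistic, which is a score and is not printed. Depth per library is unknown. Exon lines were collapsed to 1 row per gene with pandas 2.3.3 under Python 3.11.15, and log2 differences used a pseudocount of 0.1. Because each genotype has 1 pooled value, no test was run here; calls are the authors' (q under 0.05). Benjamini-Hochberg adjustment, used for alternatives, was tested on simulated data. List medians used tested genes with an FPKM of at least 1. Lists hold 475 genes, of which 8 are missing from the table.

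Members and lists were chosen with earlier results of these data known. Named genes, with an FPKM of at least 1, were the target and markers, the 15 lowest and 15 highest called differences, called list members, called chromosome 17 genes, up to 4 list members of highest level, and the 5 lowest and 5 highest differences without a call. Other genes printed, among them Bmp10, Dnah8, Srp54a, Myh3, Fgf12, Nkx2-5, Shox2, Tnnc1, Krt17, Rps2, Gm8909 and list members of lower level, were chosen after their values were seen. Alternatives changed the q threshold, the level filter, the adjustment, the pseudocount and the centring. A called gene is not reported here.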

Additional observations from a re-analysis of the deposited data

How the results depend on the processing

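The 91 falls became 74 to 80 under the 5 alternatives, within 1.5 times of the reported count. The 13 rises became 8 at a q-value under 0.01, 8 with an added 2-fold minimum and 7 when p-values were adjusted again without chromosome 17, a setting that removes its 6 rises; the other alternatives gave 10 and 11. The atrial median of -3.66 became -4.07 and -2.47 with pseudocounts of 0.01 and 1, and -3.43 and -4.44 with FPKM minimums of 0.1 and 5. The shared sarcomere median of -3.40 became -3.82 and -2.19 with those pseudocounts, -2.93 and -3.82 with those minimums, and -3.39 after centring. Cdkn1a ranged from -1.17 to -0.79 and the distal epithelium median stayed at 0.05. The 41 falls of heart-enriched genes became 56 and 23 at 5-fold and 20-fold enrichment, since fewer or more genes then qualify. Both this set and its alternatives were chosen after seeing the data. No paired analysis was possible because each genotype has 1 pooled value; for the same reason leaving out a replicate was not run. The pooled FPKM values give no depth, so differences between weakly expressed genes have no known counting error.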

Other observations

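Some genes had large differences and no call, and by the rule above they are not said to have fallen or risen. Among tested genes with an FPKM of at least 1, 51 were at least 2-fold lower without a call, and 32 of these had their highest wild-type level in heart. Pln, the calcium pump regulator phospholamban, measured 2.02 FPKM in wild type and 0.0486 in the mutant. Nppb, the second natriuretic peptide gene, measured 3.35 and 0.0243. In the authors' deposited table p was 0.044 for Pln and 0.142 for Nppb. Only 8 genes were at least 2-fold higher without a call. Gm11032 had the largest of these in FPKM, 1646 and 7129 with p = 0.147 in the authors' deposited table, while its wild-type and mutant values were 560 and 612 in heart. Alox5ap, the activating protein of leukotriene synthesis, measured 7.44 and 26.3 in lung, with p = 0.171 in the authors' deposited table, and 3.57 and 3.67 in heart.

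Fabp4, a fatty acid carrier, and Cd36, a fatty acid transporter of muscle and capillaries, were named after their values were seen. Fabp4 fell from 4.10 FPKM to 0.826 and Cd36 from 6.18 to 3.86, and wild-type heart held 155 and 49.85. Fabp3, the heart form of the carrier, measured 9.91 and 1.43 without a call, with q = 0.995 in the authors' deposited table. Genes of glycolysis and the hypoxia response gave 0 calls among 20 tested, with 1 unadjusted p under 0.05 in the authors' test and a median of -0.000949. Immediate early genes gave 0 calls among 13 tested, with 0 unadjusted p under 0.05 and a median of -0.15.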
